A study of Mus musculus with 10 samples.

Results

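The transcriptome of mouse embryonic stem cells (ESCs) in 2iL, a serum-free medium with a pair of kinase inhibitors and leukaemia inhibitory factor (LIF), was compared with that of the same line in serum plus LIF (SL). The comparison rests on 4 of the 10 libraries of the series, 2 labelled 2iL and 2 labelled SL, and these were taken by their column labels. The libraries labelled 2iL came from N2B27 medium holding 1000 IU mLIF, 3 µM Chir99021 and 1 µM PD0325901. The libraries labelled 2iL-F, set beside them here, had the same additions to the same medium. The SL libraries came from KO-DMEM with 15% FBS and 1000 IU mLIF. Per the labels, 2iL and SL cells were kept on feeders and 2iL-F cells were not. The line carries the strain label C57BL6X129S6F1, which is shared by all of these groups, as is the mouse LIF. The other 4 libraries, A2iL and LCDM, entered the shared estimate of the spread.

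Mouse ESCs can be kept in a naive state, close to the epiblast of the blastocyst, by blocking the signals that prime them for differentiation. PD0325901 inhibits MEK, the kinase that activates ERK downstream of fibroblast growth factors (FGFs). Chir99021 inhibits GSK3, which otherwise marks beta-catenin for destruction. LIF activates STAT3 through the gp130 receptor. Serum brings bone morphogenetic proteins, lipids and mitogens that cells in N2B27 do not receive in the same form, so this comparison changes the basal medium, serum and both inhibitors together, and their parts cannot be told apart.

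Values are TPM, the abundance of a gene's transcripts scaled to 1 fixed total per library, which holds no read number, so the depth and the counting error behind each value are unknown. Differences are of log2(TPM + 1), 2iL minus SL, with the standard error (SE) from limma, and a line of the table was called where the p-value, adjusted by Benjamini-Hochberg over all lines tested, was below 0.05. This scale understates the change of genes at low TPM. The 2 libraries of a group had Pearson correlations of 0.9925 to 0.9939 across lines. No label tells whether the 2 were grown as independent cultures. The p-values therefore measure the scatter between libraries, which may be technical. Symbols were found beside their own values in the upper part of the deposited table, so genes are named from its 7962 tested lines, while counts over all lines use 14578. Of the ESC markers, Pou5f1, Nanog, Esrrb, Sall4 and Tdgf1 were in that part, and together they summed to 2670 and 2850 TPM in 2iL, 2510 and 2480 TPM in 2iL-F and 1710 and 1770 TPM in SL. The label of an ESC line was met in every one of these libraries.

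Between 2iL and SL, 11321 of 14578 lines were called, or 77.7%. Of all lines 5353, or 36.7%, were higher in 2iL and 5968, or 40.9%, were lower. A difference of at least 1 on the log2 scale was found for 1875 lines that were higher and 2402 that were lower. With such a background, a list in which most members are called does not stand out by that count. The median over all lines was -0.0428. The figure of changes by list shows this background beside the lists of genes described in the text.

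**Figure D1:**
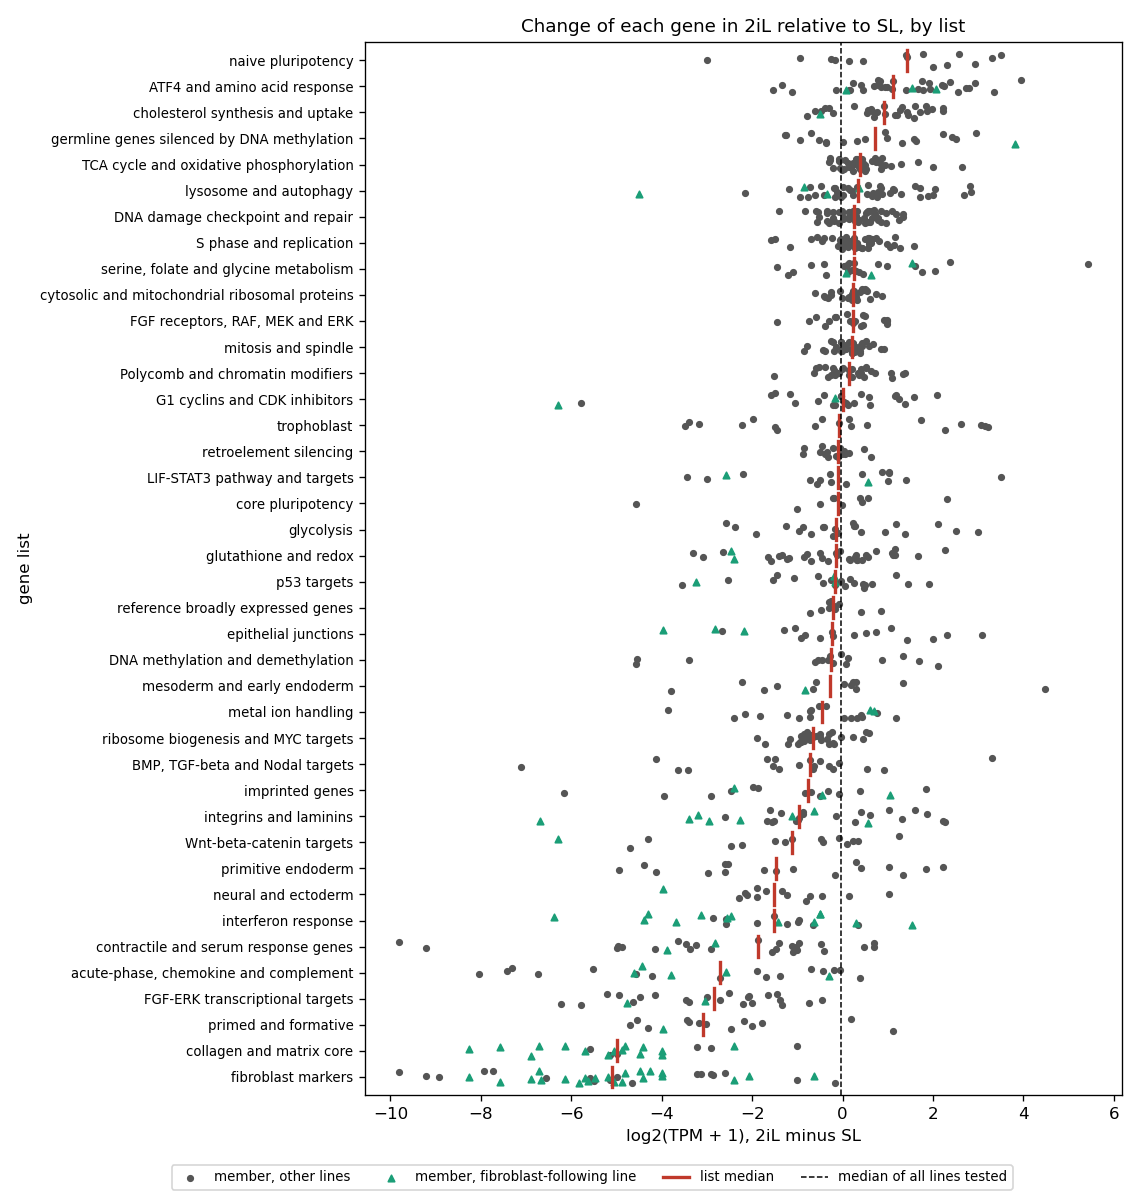
Difference of log2(TPM + 1), 2iL minus SL, for each tested member of 40 gene lists, with lists ordered by their median (red bar). Triangles are lines that follow fibroblast collagens across other libraries, and the dashed line is the median of all 14578 lines. Naive pluripotency and ATF4 lists lie furthest to the right, with medians of 1.43 and 1.11, and fibroblast, matrix, primed and FGF-ERK lists furthest to the left, at -5.1, -5.0, -3.09 and -2.85.

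The libraries differed first in fibroblast RNA, and not as their feeder labels state. Whether the labels of 2iL and 2iL-F were exchanged was not tested. If they were, each value given for 2iL would belong to 2iL-F and each given for 2iL-F to 2iL, and 2iL against SL would compare cells without feeders with cells on feeders. The groups are named as labelled. Col1a1 and Col1a2, the chains of type I collagen, fell to near 0 in 2iL and were more abundant in 2iL-F than in SL. Col1a1 (chromosome 11, 94936224 to 94953042 of mm10) had 0.2004 and 0.264 TPM in 2iL, 1058 and 974 TPM in 2iL-F and 366 and 393 TPM in SL. Col1a2 (chromosome 6, 4504814 to 4541544) had 0.00705 and 0.00663 TPM in 2iL, 252 and 245 TPM in 2iL-F and 101 and 108 TPM in SL. Both libraries of each group stood apart from those of the others for both genes. The difference between 2iL and SL was -8.27 ± 0.06 for Col1a1 and -6.71 ± 0.05 for Col1a2 (limma, adjusted p = 4.23e-12 and 4.23e-12). Lox, an enzyme that joins collagen fibres, was at 0 in both 2iL libraries and had 239 and 239.8 TPM in 2iL-F and 185 and 193 TPM in SL.

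The matrix list was likewise lower in 2iL, while in 2iL-F its members moved both ways against SL. All 21 tested genes of a collagen and matrix core were lower in 2iL than in SL, with a median of -5.0. Their summed level was 15.8 and 14.8 TPM in 2iL, 2979 and 2833 TPM in 2iL-F and 1501 and 1573 TPM in SL. In 2iL-F against SL, 13 were higher and 8 lower, where 65.4% of all lines were called, 28.1% higher and 37.3% lower. Postn, a matrix protein of fibroblasts, was listed at 0 in both 2iL libraries and had 69.04 and 73.2 TPM in 2iL-F and 14.99 and 15.1 TPM in SL. Twist1, a mesenchymal transcription factor, had 6.41 and 5.01 TPM in 2iL, 31.1 and 30.5 TPM in 2iL-F and 61.4 and 60.4 TPM in SL. Over 45 fibroblast markers, of which 40 were tested, the summed TPM was 991 and 1050 in 2iL, 6020 and 5810 in 2iL-F and 7070 and 7410 in SL. In both 2iL libraries 8 of the 40 were listed at 0 and 11 had 1 TPM or more, so the marker list holds genes that are not limited to fibroblasts. In bulk RNA, fewer fibroblasts and less of these RNAs per fibroblast cannot be told apart.

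To set fibroblast RNA beside the other changes, lines were marked that followed the matrix core over the A2iL, LCDM and 2iL-F libraries, which are not part of the 2iL against SL contrast. There were 468 such lines, 270 of them named. They made up 1.37% and 1.44% of the listed TPM in 2iL, 3.19% and 3.18% in 2iL-F and 2.67% and 2.72% in SL. The mark asks that 2iL-F exceed LCDM, so the high share in 2iL-F is partly built in. The same limit bears on each marked gene given below as high in 2iL-F. In 2iL 366 of the 468 were lower than in SL and 76 higher, with a median of -1.71. Of the remaining 14110 lines, 5277 were higher and 5602 lower, with a median of -0.0268. The mark depends on libraries of other media, so a gene can be fibroblast RNA without carrying it. Nor does carrying the mark show fibroblast origin. In 2iL the marked lines still summed to 10005 and 10470 TPM, where the matrix core had 15.8 and 14.8 TPM. For these reasons the level in 2iL-F is given for most genes. It is the same medium as 2iL with more collagen RNA than SL, and the 2 contrasts with SL share the same SL libraries.

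**Figure D2:**
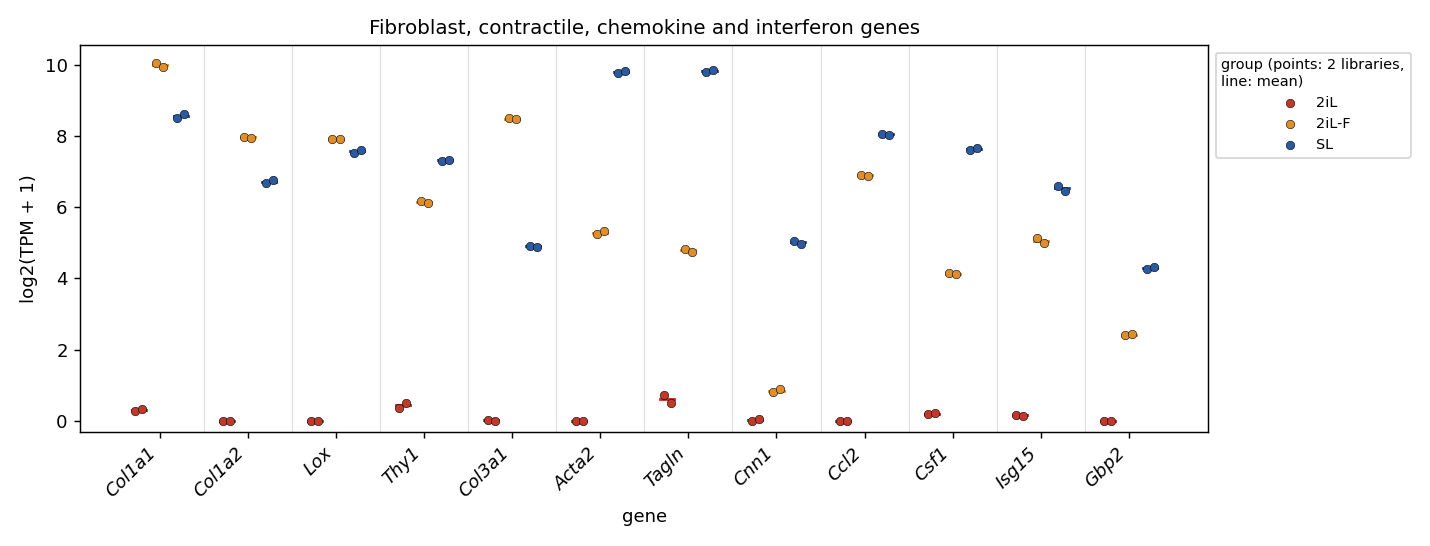
Level of 12 genes of fibroblasts, the contractile apparatus, chemokines and the interferon response as log2(TPM + 1) in 2iL, 2iL-F and SL, with a point for each of 2 libraries and a line at their mean. The 2iL libraries lie below 1 for each of the 12, while Col1a1, Col1a2 and Col3a1 are highest in 2iL-F and the contractile genes Acta2, Tagln and Cnn1 are highest in SL.

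Among marked lines, the largest decreases beside the collagens were those of surface and matrix genes. Thy1, a glycoprotein of the fibroblast surface, had 0.293 and 0.413 TPM in 2iL, 70.9 and 68.4 TPM in 2iL-F and 158 and 160.5 TPM in SL, a difference of -6.89 ± 0.06 between 2iL and SL. Cd44, the hyaluronan receptor, had 0.0129 and 0.0122 TPM in 2iL, 23.1 and 22.4 TPM in 2iL-F and 102 and 107 TPM in SL. Timp2, an inhibitor of matrix metalloproteinases, had 0.878 and 0.888 TPM in 2iL, 129 and 125 TPM in 2iL-F and 188 and 191 TPM in SL. In these 3 genes the 2iL-F level lay between the other groups without overlap. Aebp1, a collagen-binding protein, differed by -6.24, and Col5a2, a chain of type V collagen, by -6.14. Of all lines 36.7% were higher in 2iL than in SL and 40.9% lower. Of 29 tested integrins, laminins and matrix proteases, 10 were higher and 19 lower in 2iL, and 8 of the 29 carried the mark. Mmp14, a membrane-bound protease that cuts collagen and one of the 8, had 12.4 and 11.2 TPM in 2iL, 145 and 132 TPM in 2iL-F and 112 and 119 TPM in SL.

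Contractile genes were lower than in SL in both 2iL media. Acta2, smooth muscle actin (chromosome 19, 34241090 to 34255590), was listed at 0 in both 2iL libraries and had 36.8 and 39.3 TPM in 2iL-F and 875 and 907 TPM in SL. Tagln, an actin-binding protein of smooth muscle and myofibroblasts, had 0.661 and 0.414 TPM in 2iL, 27.6 and 25.9 TPM in 2iL-F and 884 and 933 TPM in SL. Its difference was -9.21 ± 0.09 in 2iL and -5.04 ± 0.09 in 2iL-F, each against SL (limma, adjusted p = 1.69e-11 and 2.97e-09). Both genes were thus below SL in 2iL-F, where Col1a1 was above it. Cnn1, calponin, had 0 and 0.0301 TPM in 2iL, 0.751 and 0.862 TPM in 2iL-F and 32.4 and 30.4 TPM in SL, and Tpm2, a tropomyosin, had 5.36 and 5.07 TPM in 2iL, 14.5 and 14.02 TPM in 2iL-F and 105 and 112 TPM in SL. Over the list of contractile and serum response genes, 24 of 27 tested members were lower in 2iL and 25 in 2iL-F, with medians of -1.87 and -1.55.

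Serum response factor binds the CArG box, and the promoter of Acta1, skeletal actin, is shown because it holds this motif. Acta1 had 0.285 and 0 TPM in 2iL, 7.22 and 1.19 TPM in 2iL-F and 34.02 and 34.6 TPM in SL, and the difference between 2iL and SL was -4.96 ± 0.70, with an SE that pools the spread of all groups, or -7.45 with a pseudocount of 0.1. The stretch is chr8:123894789-123894868 of GRCm38.p6 on the minus strand, from RefSeq, and runs from 93 to 14 bases before the start of the gene, with the CArG box in capitals.
Acta1: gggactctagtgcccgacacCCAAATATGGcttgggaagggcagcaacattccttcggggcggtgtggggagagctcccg
Both strands of the 250 bases before each start were searched. The motif lay in 5 of the 20 members of the contractile list with a promoter in the table, or 25%, and in 439 of 27025 genes in all, or 1.62%. The others were Cnn2, Vcl, Srf and Vil1. A match of letters does not show binding.

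Chemokine and growth factor genes were also near 0 in 2iL. Ccl2 and Ccl7, which attract monocytes, were listed at 0 in both 2iL libraries. Ccl2 had 119 and 118 TPM in 2iL-F and 265 and 262 TPM in SL, and Ccl7 had 81.2 and 91.2 TPM in 2iL-F and 162 and 153 TPM in SL. Csf1, a growth factor of macrophages, had 0.149 and 0.156 TPM in 2iL, 16.8 and 16.3 TPM in 2iL-F and 194 and 202 TPM in SL, a difference of -7.43 ± 0.05 between 2iL and SL. Ptgs2, which makes prostaglandins, had 0.0766 and 0.05396 TPM in 2iL, 14.5 and 16.4 TPM in 2iL-F and 111 and 115 TPM in SL. Of 21 tested acute-phase, chemokine and complement genes, 18 were lower in 2iL than in SL and 1 was higher. In 2iL-F the same list had 11 higher and 9 lower, with Cxcl1, a neutrophil chemokine listed at 0 in both 2iL libraries, at 70.2 and 76.8 TPM in 2iL-F against 46.2 and 44.1 TPM in SL. All 21 were higher in 2iL-F than in 2iL, a comparison in which 61.7% of all lines were called and 29.2% were higher.

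Other genes among the 15 largest decreases outside the marked lines are known from mesenchymal cells. Tnc, the matrix protein tenascin C, had 0 and 0.0106 TPM in 2iL, 95.3 and 92.1 TPM in 2iL-F and 478 and 499.8 TPM in SL. Bgn, the proteoglycan biglycan, was listed at 0 in both 2iL libraries and had 61.5 and 61.4 TPM in 2iL-F and 230.4 and 258 TPM in SL, and Thbs2, a thrombospondin, had 62.99 and 60.4 TPM in 2iL-F and 89.8 and 95.9 TPM in SL with 0 in both 2iL libraries. S100a6, a calcium-binding protein, had 3.01 and 2.65 TPM in 2iL, 82.7 and 85.98 TPM in 2iL-F and 775 and 762 TPM in SL. Each of these 4 was above 2iL in both 2iL-F libraries and below SL. S100a4, of the same family as S100a6, had 0 and 0.282 TPM in 2iL, 13.3 and 11.96 TPM in 2iL-F and 235 and 241 TPM in SL, and Axl, a receptor tyrosine kinase, had 0.523 and 0.802 TPM in 2iL, 23.4 and 23.96 TPM in 2iL-F and 131 and 134 TPM in SL. Rgs16, which shortens signals of G proteins, differed by -6.57 ± 0.09. The part of fibroblast RNA in these differences was not tested.

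Interferon response genes were lower in 2iL, and 13 of the 23 tested members carried the fibroblast mark. 20 of 23 were lower in 2iL than in SL and 3 higher, with a median of -1.52. With the marked lines removed 9 of 10 were lower. In 2iL-F 10 were lower than in SL and 6 higher, with a median of -0.191. Isg15, a ubiquitin-like protein induced by interferon, had 0.116 and 0.109 TPM in 2iL, 33.9 and 30.8 TPM in 2iL-F and 96.7 and 86.2 TPM in SL. Ifit1, which binds viral RNA, had 0.06601 and 0 TPM in 2iL, 5.89 and 6.15 TPM in 2iL-F and 19.8 and 21.9 TPM in SL, and Rtp4, another induced gene, was listed at 0 in both 2iL libraries and had 6.75 and 6.97 TPM in 2iL-F and 8.49 and 7.13 TPM in SL. Gbp2 and Usp18 were listed at 0 in both 2iL libraries too, and these 5 genes carried the mark. 22 of the 23 members were higher in 2iL-F than in 2iL, where 29.2% of all lines were. The mark that 13 of them carried favours lines with a high level in 2iL-F.

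The promoter of Isg15 is shown because it holds the core of the interferon-stimulated response element, GAAA followed after 2 bases by a second GAAA, 3 times in overlapping form (capitals). The stretch is chr4:156200837-156200916 of GRCm38.p6 on the minus strand, from RefSeq, from 98 to 19 bases before the start.
Isg15: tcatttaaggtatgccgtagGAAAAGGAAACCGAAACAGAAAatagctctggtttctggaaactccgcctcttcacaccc
On either strand this motif lay in 6 of 14 members with a promoter in the table, or 42.9%, and in 936 of 27025 genes, or 3.46%. The others were Ifit1, Rsad2, Gbp2, Gbp3 and Cxcl10.

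FGF-ERK targets fell in both 2iL media, and their members divided by what 2iL-F showed. All 24 tested members were lower in 2iL than in SL, with a median of -2.85. In 2iL-F 20 were lower and 1 higher, with a median of -1.83. Spry4 and Dusp6, feedback inhibitors of the pathway, were low in both. Spry4, a Sprouty protein that restrains RAS signalling, had 0.229 and 0.287 TPM in 2iL, 0.429 and 0.343 TPM in 2iL-F and 25.6 and 28.4 TPM in SL. Its difference from SL was -4.48 ± 0.08 in 2iL and -4.34 ± 0.08 in 2iL-F (limma, adjusted p = 3.43e-10 and 2.74e-09), and the difference of 2iL-F from 2iL was 0.14 ± 0.08 (limma, adjusted p = 0.143). Dusp6, the phosphatase of ERK in the cytoplasm, had 2.49 and 2.63 TPM in 2iL, 6.59 and 6.22 TPM in 2iL-F and 62.3 and 62.8 TPM in SL. Dusp9, of the same family, was lowered less. It had 67.2 and 57.9 TPM in 2iL, 33.98 and 34.9 TPM in 2iL-F and 104 and 106 TPM in SL.

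Other members with low levels in both 2iL media were phosphatases, ligands and transcription factors. Dusp4, a nuclear phosphatase of the same family, had 8.67 and 8.87 TPM in 2iL, 7.47 and 6.502 TPM in 2iL-F and 77.2 and 76.9 TPM in SL, and Dusp5 had 5.25 and 4.697 TPM in 2iL, 6.79 and 7.03 TPM in 2iL-F and 64.3 and 60.03 TPM in SL. Spred1, a membrane-bound inhibitor of RAF, had 6.93 and 8.31 TPM in 2iL, 9.14 and 9.44 TPM in 2iL-F and 48.9 and 47.4 TPM in SL. Etv4, an ETS factor induced by FGF, had 26.9 and 27.1 TPM in 2iL, 26.6 and 22.9 TPM in 2iL-F and 110.2 and 112 TPM in SL. Phlda1 differed from SL by -4.64 in 2iL and -3.10 in 2iL-F, and Hbegf, a ligand of the EGF receptor, by -2.09 and -2.27. Etv5, a second ETS factor, changed little by comparison, with 116 and 122 TPM in 2iL, 202 and 199 TPM in 2iL-F and 162 and 168 TPM in SL, and was the 1 member higher in 2iL-F than in SL. The CArG box was found before 1 of 14 members with a promoter in the table, Dusp5, or 7.14%.

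A second set of members was low in 2iL but within 1 of SL on the log2 scale in 2iL-F. Fos, an immediate early gene (chromosome 12, 85473890 to 85477273), had 3.32 and 3.47 TPM in 2iL, 159 and 162 TPM in 2iL-F and 159 and 162 TPM in SL. The 2iL libraries stood far below the others, while 2iL-F and SL overlapped. The difference from SL was -5.20 ± 0.04 in 2iL (limma, adjusted p = 4.23e-12), and the adjusted p was 0.96 in 2iL-F. Fosb, its paralogue, had 0.126 and 0.132 TPM in 2iL, 43.96 and 39.3 TPM in 2iL-F and 82.5 and 84.6 TPM in SL. Ier3, another early gene, had 9.301 and 8.67 TPM in 2iL, 78.5 and 77.5 TPM in 2iL-F and 81.3 and 81.2 TPM in SL, and Dusp1, a phosphatase of stress kinases, had 61.7 and 54.2 TPM in 2iL, 201 and 189.8 TPM in 2iL-F and 181 and 189 TPM in SL. Fosl2, a Fos-related factor, had 0.299 and 0.374 TPM in 2iL, 30.3 and 26.8 TPM in 2iL-F and 34.4 and 36.1 TPM in SL. Ier3 and Fosl2 carried the fibroblast mark and Fos, Fosb and Dusp1 did not. All 5 were higher in 2iL-F than in 2iL, by 1.74 for Dusp1 up to 5.24 for Fosb.

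Myc, a regulator of growth and of ribosome production, lay between these sets. It had 0.194 and 0.333 TPM in 2iL, 7.500 and 7.78 TPM in 2iL-F and 67.2 and 70.1 TPM in SL, a difference from SL of -5.79 ± 0.07 in 2iL and -3.01 ± 0.07 in 2iL-F. Fosl1 had a like order, with 0.308 and 0.965 TPM in 2iL, 3.403 and 3.43 TPM in 2iL-F and 45.8 and 50.8 TPM in SL. Ccnd2, cyclin D2, which carried the fibroblast mark, had 0.0932 and 0.03502 TPM in 2iL, 19.5 and 20.1 TPM in 2iL-F and 79.2 and 85.2 TPM in SL. In each of the 3 the groups did not overlap, with 2iL lowest and SL highest.

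**Figure D3:**
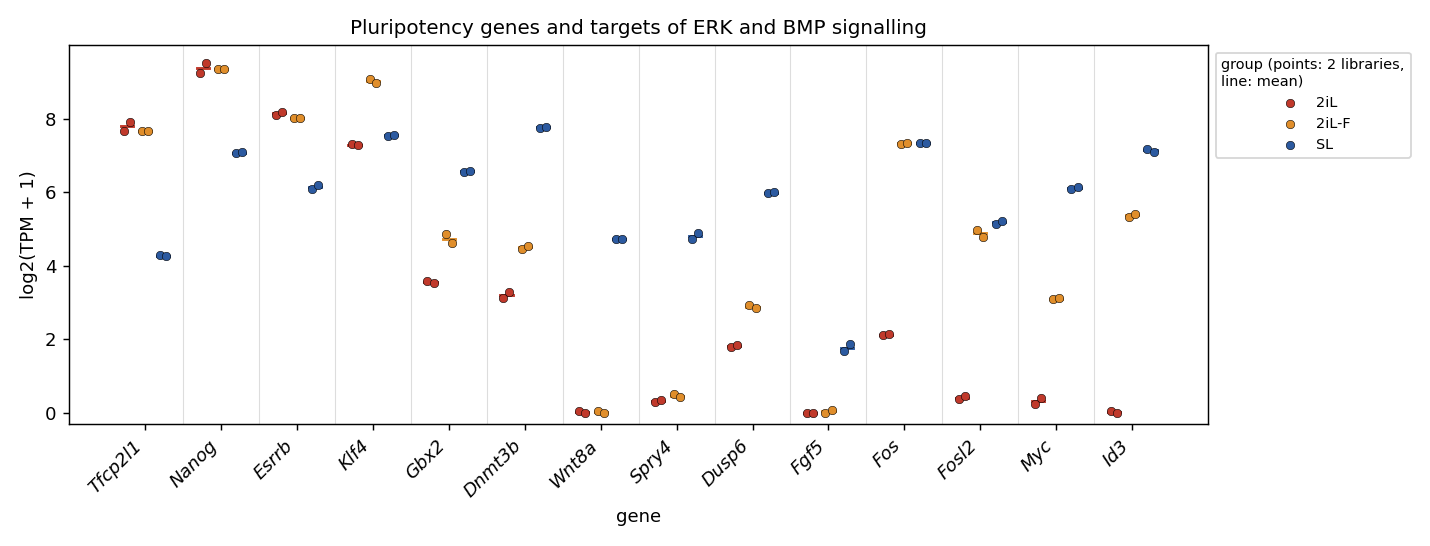
Level of 14 pluripotency genes and targets of ERK and BMP signalling as log2(TPM + 1) in 2iL, 2iL-F and SL, with a point for each of 2 libraries and a line at their mean. Tfcp2l1, Nanog and Esrrb are higher in both 2iL media than in SL, Wnt8a, Spry4 and Fgf5 are near 0 in both, and Fos and Fosl2 are low in 2iL and near SL in 2iL-F.

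Naive pluripotency genes were mostly higher in 2iL. Of 15 tested members 11 were higher and 4 lower, with a median of 1.43, and in 2iL-F 13 were higher and 1 lower. Tfcp2l1, a factor downstream of STAT3, had 201 and 239 TPM in 2iL, 202 and 203 TPM in 2iL-F and 18.4 and 18.4 TPM in SL. Fbxo15, an F-box protein of ESCs, had 140.0 and 161 TPM in 2iL, 107 and 111 TPM in 2iL-F and 18.8 and 18.9 TPM in SL, and Tbx3, a T-box factor that sustains self-renewal, had 56.05 and 54.8 TPM in 2iL, 108 and 102 TPM in 2iL-F and 8.04 and 8.797 TPM in SL. Pecam1, an adhesion protein of the inner cell mass, differed by 3.31 ± 0.04 between 2iL and SL. Nr5a2, an orphan nuclear receptor, had 28.2 and 34.2 TPM in 2iL, 32.5 and 31.6 TPM in 2iL-F and 8.500 and 8.23 TPM in SL, and Klf5, a Krüppel-like factor, had 147 and 138 TPM in 2iL, 121 and 117 TPM in 2iL-F and 52.3 and 54.8 TPM in SL. Esrrb differed by 2.00 ± 0.05 and Nanog by 2.31 ± 0.08.

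Klf4 and Nr0b1 gave opposite signs in the 2iL media. Klf4, a Krüppel-like factor induced by LIF, had 157 and 153 TPM in 2iL, 536 and 497 TPM in 2iL-F and 182 and 188 TPM in SL. The difference from SL was -0.25 ± 0.05 in 2iL (limma, adjusted p = 0.000871) and 1.48 ± 0.05 in 2iL-F (limma, adjusted p = 3.28e-08). Nr0b1, a nuclear receptor known as Dax1, had 68.4 and 67.5 TPM in 2iL, 149.8 and 143 TPM in 2iL-F and 75.3 and 77.3 TPM in SL, a difference from SL of -0.16 ± 0.04 in 2iL. Gbx2, a homeobox factor, was lower than in SL in both media, with 10.99 and 10.7 TPM in 2iL, 28.1 and 23.4 TPM in 2iL-F and 92.9 and 94.7 TPM in SL. Of 10 core pluripotency genes 4 were higher and 5 lower, from -4.57 for Dnmt3l to 2.31 for Nanog. Pou5f1, which encodes OCT4, had 1367 and 1359.8 TPM in 2iL, 1173 and 1146 TPM in 2iL-F and 991 and 1047 TPM in SL, and Zscan10, a zinc finger factor of ESCs, had 46.8 and 45.3 TPM in 2iL, 76.5 and 69.2 TPM in 2iL-F and 90.5 and 96.5 TPM in SL.

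Genes of the primed and formative states were lower. Of 14 tested members 12 were lower in 2iL and 12 in 2iL-F, with medians of -3.09 and -2.47. Wnt8a, a Wnt ligand of the early streak, had 0.0502 and 0 TPM in 2iL, 0.0512 and 0 TPM in 2iL-F and 25.6 and 25.4 TPM in SL. Fgf15, an FGF of the early embryo, had 0.258 and 0.3502 TPM in 2iL, 0.205 and 0.114 TPM in 2iL-F and 4.69 and 5.13 TPM in SL, and Wnt3, another ligand, had 0.171 and 0.375 TPM in 2iL, 0.0581 and 0.312 TPM in 2iL-F and 5.35 and 6.88 TPM in SL. Fgf5, the standard marker of the primed epiblast, was listed at 0 in both 2iL libraries and had 0 and 0.0698 TPM in 2iL-F and 2.19 and 2.69 TPM in SL. Pim2, a serine kinase, had 7.65 and 9.11 TPM in 2iL, 6.71 and 6.34 TPM in 2iL-F and 98.6 and 102 TPM in SL. For these 5 genes both 2iL media lay below SL without overlap. Otx2, a formative homeobox factor, went the other way, with 6.25 and 7.81 TPM in 2iL, 6.03 and 5.94 TPM in 2iL-F and 2.33 and 3.12 TPM in SL, and Eomes, a T-box factor, differed by 0.19 ± 0.07 in 2iL, a call that was lost under 7 of 16 alternatives, those that leave out a library of SL or 2iL 5 among them. Sfrp2, a secreted Wnt antagonist, had 1.51 and 1.95 TPM in 2iL, 16.8 and 15.7 TPM in 2iL-F and 22.2 and 19.9 TPM in SL, and Cdh2, N-cadherin, which carried the fibroblast mark, had 0.185 and 0.235 TPM in 2iL, 5.496 and 5.65 TPM in 2iL-F and 17.5 and 18.6 TPM in SL.

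The enzymes that lay down new DNA methylation were lower in 2iL, while Dnmt1 and Uhrf1 were higher. Dnmt3a, a de novo methyltransferase, had 3.08 and 3.16 TPM in 2iL, 3.45 and 3.52 TPM in 2iL-F and 41.9 and 42.7 TPM in SL. Dnmt3b, the second such enzyme, had 7.73 and 8.82 TPM in 2iL, 20.99 and 22.4 TPM in 2iL-F and 214 and 217 TPM in SL, and was higher in 2iL-F than in 2iL by 1.29 ± 0.07. Dnmt3l, their cofactor without catalytic activity, had 3.198 and 3.67 TPM in 2iL, 4.49 and 4.12 TPM in 2iL-F and 104 and 105 TPM in SL. Dnmt1, the maintenance enzyme, had 143 and 152 TPM in 2iL, 120.2 and 118 TPM in 2iL-F and 78.3 and 82.8 TPM in SL, and Uhrf1, which brings it to replicated DNA, had 388 and 413 TPM in 2iL, 388 and 382 TPM in 2iL-F and 153 and 160.5 TPM in SL. Gadd45b, linked to demethylation and stress, had 148 and 139 TPM in 2iL, 52.8 and 48.5 TPM in 2iL-F and 31.01 and 33.5 TPM in SL, and Mbd4, a glycosylase for mismatched thymine, had 17.6 and 18.7 TPM in 2iL, 8.14 and 8.57 TPM in 2iL-F and 4.61 and 5.299 TPM in SL. Tet3 differed by -0.041 ± 0.09 (limma, adjusted p = 0.677). Of all lines 36.7% were higher and 40.9% lower, and of 16 tested members of this list 4 were higher and 9 lower. Among those lower were Hells, a chromatin remodeller, by -0.46, Usp7, a deubiquitinase, by -0.28, and Uhrf2, the paralogue of Uhrf1, by -0.21, a call that was lost without 2iL 3 and without either SL library.

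Targets of the Wnt pathway were lower more often than higher in 2iL, which holds Chir99021. Of 15 tested members 3 were higher and 9 lower in 2iL, where 36.7% of all lines were higher and 40.9% lower. With a filter of 5 TPM, 5 of 8 were lower. Lef1, a transcription partner of beta-catenin, had 0.0599 and 0.0375 TPM in 2iL, 0.753 and 0.656 TPM in 2iL-F and 19.1 and 20.4 TPM in SL. Cdx2, a caudal factor, was listed at 0 in both 2iL libraries and had 0.593 and 0.772 TPM in 2iL-F and 3.53 and 3.78 TPM in SL. Axin2, the general feedback target of beta-catenin, had 13.5 and 12.3 TPM in 2iL, 24.4 and 23.2 TPM in 2iL-F and 11.9 and 12.3 TPM in SL. It differed by 0.088 ± 0.06 in 2iL (limma, adjusted p = 0.22), which did not pass, and by 0.92 ± 0.06 in 2iL-F (limma, adjusted p = 2.77e-06). Cdx1, another caudal factor, had 34.1 and 34.6 TPM in 2iL, 40.5 and 36.2 TPM in 2iL-F and 30.6 and 27.4 TPM in SL, and Wnt3a, a ligand, had 2.29 and 2.24 TPM in 2iL, 0.518 and 0.917 TPM in 2iL-F and 0.497 and 0.279 TPM in SL.

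BMP and Nodal targets were mostly lower in 2iL. Of 19 tested members 3 were higher and 15 lower, where 36.7% of all lines were higher and 40.9% lower. The list median was -0.72, and in 2iL-F 5 were higher and 13 lower. The 3 higher in 2iL were Bmp7, Id4 and Gdf3. Id3, an inhibitor of differentiation factors that BMP induces (chromosome 4, 136143497 to 136145755), had 0.0489 and 0 TPM in 2iL, 39.2 and 41.6 TPM in 2iL-F and 144 and 135 TPM in SL, a difference of -7.10 ± 0.07 between 2iL and SL. Bmp4, the ligand itself, had 0.975 and 0.5496 TPM in 2iL, 3.697 and 2.95 TPM in 2iL-F and 16.04 and 19.2 TPM in SL. Bmp7, a related ligand, had 28.9 and 25.7 TPM in 2iL, 11.03 and 10.02 TPM in 2iL-F and 1.77 and 1.99 TPM in SL, and Id4, a second Id gene, had 18.02 and 17.2 TPM in 2iL, 45.3 and 42.6 TPM in 2iL-F and 9.49 and 8.37 TPM in SL. Skil, a repressor induced by TGF-beta and Nodal, had 8.95 and 11.2 TPM in 2iL, 10.4 and 11.1 TPM in 2iL-F and 33.2 and 34.7 TPM in SL, whereas Gdf3, a ligand of the same family, had 86.4 and 88.6 TPM in 2iL, 115 and 115 TPM in 2iL-F and 57.04 and 61.9 TPM in SL. Fst, which binds activin, had 0.987 and 1.12 TPM in 2iL, 11.1 and 10.4 TPM in 2iL-F and 34.7 and 34.7 TPM in SL. In Id3, Bmp4 and Fst 2iL-F lay between 2iL and SL with no overlap. Smad7, an inhibitory SMAD, had 45.02 and 42.6 TPM in 2iL, 99.6 and 92.3 TPM in 2iL-F and 74.4 and 71.3 TPM in SL.

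In the LIF and STAT3 list 8 of 18 tested members were higher and 8 lower in 2iL, where 36.7% of all lines were higher and 40.9% lower. Pim1 and Pim3, kinases induced by STAT3, had 536 and 533 TPM in 2iL, 389 and 339.7 TPM in 2iL-F and 262 and 263 TPM in SL for Pim1 and 217 and 214 TPM in 2iL, 159 and 152 TPM in 2iL-F and 103 and 112 TPM in SL for Pim3. Socs2, a feedback inhibitor of cytokine signalling, had 16.5 and 17.6 TPM in 2iL, 9.86 and 9.92 TPM in 2iL-F and 16.7 and 15.7 TPM in SL, with an adjusted p of 0.363 (limma) between 2iL and SL. Il6st, the gp130 receptor chain, had 12.6 and 13.4 TPM in 2iL, 31.8 and 32.2 TPM in 2iL-F and 22.7 and 21.4 TPM in SL. The Lif gene had 5.905 and 6.21 TPM in 2iL, 5.999 and 7.57 TPM in 2iL-F and 31.3 and 32.1 TPM in SL.

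Outside the marked lines, the 15 genes with the largest increases in 2iL were also higher than SL in 2iL-F. Aqp3, a channel for water and glycerol (chromosome 4, 41092722 to 41098183), had 247 and 254 TPM in 2iL, 132 and 141 TPM in 2iL-F and 3.68 and 3.73 TPM in SL, a difference of 5.74 ± 0.05 between 2iL and SL (limma, adjusted p = 1.09e-11). Aldh1l1, a folate enzyme (chromosome 6, 90486427 to 90600203), had 70.2 and 75.1 TPM in 2iL, 27.3 and 28.6 TPM in 2iL-F and 0.5800 and 0.873 TPM in SL, a difference of 5.42 ± 0.09. Susd2, a surface protein, had 96.6 and 95.4 TPM in 2iL, 37.8 and 34.4 TPM in 2iL-F and 1.92 and 2.16 TPM in SL. Ly6g6e, a small protein of the Ly6 family, had 52.8 and 50.5 TPM in 2iL, 27.4 and 23.9 TPM in 2iL-F and 0.882 and 0.529 TPM in SL, and Gstm3, a glutathione transferase of a family whose members share sequence, had 52.5 and 56.5 TPM in 2iL, 25.9 and 25.05 TPM in 2iL-F and 1.14 and 0.8801 TPM in SL. The groups did not overlap in any of these 5. Fabp3, a fatty acid carrier, was the most abundant of the 15, with 1107 and 1077 TPM in 2iL, 503 and 494 TPM in 2iL-F and 65.8 and 64.5 TPM in SL.

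Several of these genes were regulators or enzymes. Gsc, the homeobox factor goosecoid of the organiser, had 39.9 and 31.6 TPM in 2iL, 22.1 and 25.6 TPM in 2iL-F and 0.393 and 0.9100 TPM in SL. Klf15, a Krüppel-like factor of nutrient metabolism, had 45.4 and 42.4 TPM in 2iL, 11.05 and 10.7 TPM in 2iL-F and 1.47 and 0.9302 TPM in SL, and Acss1, which activates acetate in mitochondria, had 48.6 and 49.05 TPM in 2iL, 28.1 and 28.9 TPM in 2iL-F and 1.51 and 1.398 TPM in SL. Calcoco2, an autophagy receptor, had 121 and 125 TPM in 2iL, 164 and 167 TPM in 2iL-F and 4.54 and 4.15 TPM in SL, and AA467197, the mouse gene for a small protein also called Nmes1, had 23.5 and 24.2 TPM in 2iL, 25.9 and 25.1 TPM in 2iL-F and 0.207 and 0.879 TPM in SL. Calcoco2 was higher in 2iL-F than in 2iL by 0.43 ± 0.09, and AA467197 differed by 0.10 ± 0.19 (limma, adjusted p = 0.677). Tspo2, a membrane protein known from erythroid cells, had 16.9 and 15.4 TPM in 2iL, 1.74 and 1.62 TPM in 2iL-F and 0.0785 and 0 TPM in SL, and Eps8l2, an actin regulator, had 60.2 and 61.95 TPM in 2iL, 12.3 and 12.1 TPM in 2iL-F and 2.48 and 2.75 TPM in SL. For these 2 genes the 2iL-F libraries lay nearer to SL than to 2iL. Ildr1, of tricellular junctions, and Mst1, a secreted ligand, differed by 4.49 ± 0.07 and 4.07 ± 0.18.

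Germline genes that DNA methylation keeps silent in somatic cells were higher in 12 of 20 tested cases and lower in 6, with a median of 0.721. Of all lines 36.7% were higher and 40.9% lower. In 2iL-F 10 were higher than in SL and 7 lower, with a median of 0.203, and 12 were lower than in 2iL. The genes given here were all among those higher in 2iL. Dazl, an RNA-binding protein of germ cells, had 13.3 and 18.03 TPM in 2iL, 8.96 and 10.2 TPM in 2iL-F and 1.27 and 1.01 TPM in SL. Sohlh2, a factor of early oocytes and spermatogonia, had 14.4 and 17.4 TPM in 2iL, 15.5 and 17.7 TPM in 2iL-F and 2.85 and 2.400 TPM in SL, and Tex14, of germ cell bridges, had 13.7 and 17.4 TPM in 2iL, 10.4 and 11.4 TPM in 2iL-F and 1.59 and 2.22 TPM in SL. Rhox6, a homeobox gene of a cluster of close copies and so uncertain in its level, which carried the fibroblast mark, had 44.9 and 44.7 TPM in 2iL, 6.902 and 6.74 TPM in 2iL-F and 2.35 and 2.19 TPM in SL. Dpep3, a testis dipeptidase, had 7.95 and 8.101 TPM in 2iL, 1.47 and 1.54 TPM in 2iL-F and 0.955 and 0.453 TPM in SL. For Rhox6 and Dpep3 the increase was 1.26 and 0.57 in 2iL-F, against 3.81 and 2.42 in 2iL.

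Lineage factors outside the epiblast did not move together. In the trophoblast list 8 of 19 members were higher and 9 lower, where 36.7% of all lines were higher and 40.9% lower. Tead4, a factor of the trophectoderm, had 60.8 and 61.03 TPM in 2iL, 35.1 and 33.1 TPM in 2iL-F and 5.72 and 5.64 TPM in SL, and Elf3, an epithelial ETS factor, had 91.5 and 101 TPM in 2iL, 97.5 and 92.4 TPM in 2iL-F and 9.902 and 9.93 TPM in SL. Gata2, a factor of trophoblast and blood, had 27.1 and 29.3 TPM in 2iL, 2.33 and 1.88 TPM in 2iL-F and 2.45 and 2.53 TPM in SL, and its difference of 2iL-F from 2iL was -3.24 ± 0.12 (limma, adjusted p = 1.02e-07). The keratins Krt18 and Krt19 were lower, with 21.5 and 18.2 TPM in 2iL, 4.66 and 3.71 TPM in 2iL-F and 180.1 and 192 TPM in SL for Krt18 and 0.851 and 1.24 TPM in 2iL, 2.55 and 2.12 TPM in 2iL-F and 22.1 and 21.5 TPM in SL for Krt19. Gata4, of primitive endoderm, had 9.903 and 8.44 TPM in 2iL, 2.404 and 2.51 TPM in 2iL-F and 3.23 and 2.78 TPM in SL, while Lrp2, the endocytic receptor megalin, had 0.798 and 1.01 TPM in 2iL, 0.4602 and 0.429 TPM in 2iL-F and 13.96 and 14.1 TPM in SL. Of the primitive endoderm list 11 of 17 were lower and 5 higher, of mesoderm and early endoderm 7 of 14 and 4, and of neural genes 12 of 14 and 1. Col4a1, a collagen gene, was among the primitive endoderm genes that were lower. It had 2.28 and 2.35 TPM in 2iL, 29.6 and 27.4 TPM in 2iL-F and 98.1 and 104 TPM in SL. The neural list held Cdh2, which carried the fibroblast mark. The part of fibroblast RNA in these counts was not tested. Fgf8, an FGF of the primitive streak, had 0.195 and 0.366 TPM in 2iL, 0.132 and 0.647 TPM in 2iL-F and 16.5 and 17.02 TPM in SL, and Neurod1, a neural factor, had 0.0642 and 0.0906 TPM in 2iL, 0.164 and 0.03200 TPM in 2iL-F and 3.29 and 4.33 TPM in SL.

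Of 19 junction genes of epithelia 8 were higher and 9 lower, where 36.7% of all lines were higher and 40.9% lower. Tjp3, of tight junctions, had 68.00 and 62.9 TPM in 2iL, 12.4 and 12.5 TPM in 2iL-F and 6.68 and 6.99 TPM in SL, and St14, a membrane protease, had 95.8 and 93.8 TPM in 2iL, 44.3 and 40.6 TPM in 2iL-F and 18.03 and 18.6 TPM in SL. Grhl2, an epithelial transcription factor, had 0.5903 and 0.708 TPM in 2iL, 0.332 and 0.466 TPM in 2iL-F and 9.18 and 9.75 TPM in SL. Snai2, a repressor of epithelial genes that carried the fibroblast mark, had 0.1301 and 0.245 TPM in 2iL, 5.97 and 6.74 TPM in 2iL-F and 7.59 and 7.09 TPM in SL. Cdh1 and Cldn7 were chosen after their values were seen. Cdh1, E-cadherin, had 615 and 645 TPM in 2iL, 349.9 and 344 TPM in 2iL-F and 229 and 242 TPM in SL, and Cldn7, a claudin, had 65.8 and 68.00 TPM in 2iL, 4.404 and 4.44 TPM in 2iL-F and 30.6 and 32.3 TPM in SL. Cldn7 was thus higher than SL in 2iL and lower than SL in 2iL-F, by 1.06 ± 0.05 and -2.58 ± 0.05.

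ATF4 is the transcription factor of the response to amino acid shortage and unfolded proteins, and its targets were higher in 2iL. Of 36 tested members 31 were higher and 3 lower, with a median of 1.11, and in 2iL-F 29 were higher and 4 lower, with a median of 0.753. In 2iL-F 27 of the 36 were lower than in 2iL, against 32.5% of all lines. Asns, asparagine synthetase (chromosome 6, 7675169 to 7693254), had 731 and 819 TPM in 2iL, 546 and 551 TPM in 2iL-F and 131 and 133 TPM in SL. Chac1, which degrades glutathione, had 56.02 and 62.7 TPM in 2iL, 36.1 and 36.2 TPM in 2iL-F and 7.01 and 6.87 TPM in SL, and Nupr1, a stress-induced nuclear protein, had 128 and 126 TPM in 2iL, 46.5 and 47.3 TPM in 2iL-F and 7.74 and 6.92 TPM in SL.

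The promoters of these 3 genes are shown because each holds the C/EBP-ATF response element TGATGNAA, in capitals and, where it lies on the other strand, as its reverse complement. In GRCm38.p6, from RefSeq, that of Asns is chr6:7693210-7693252 on the minus strand, from 43 bases to 1 base before the start. That of Chac1 is chr2:119351029-119351108 on the plus strand, from 213 to 134 bases before, and that of Nupr1 is chr7:126625521-126625600 on the minus strand, from 130 to 51 bases before. Each start is a RefSeq start with the motif before it, and can differ from the end of the GENCODE gene. The stretches of Asns and Nupr1 lie inside the GENCODE spans of these genes, which for Nupr1 is 126623249 to 126630861.
Asns: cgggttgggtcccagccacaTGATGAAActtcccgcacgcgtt
Chac1: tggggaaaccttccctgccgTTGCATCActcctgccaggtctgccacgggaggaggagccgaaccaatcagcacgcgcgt
Nupr1: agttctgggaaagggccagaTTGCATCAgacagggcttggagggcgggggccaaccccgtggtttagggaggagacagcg
On either strand of the 250 bases before the start this motif lay in 11 of 29 members with a promoter in the table, or 37.9%, and in 1056 of 27025 genes, or 3.91%. Pycr1 was another of the 11.

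Further ATF4 targets made amino acids or signalled stress. Gpt2, a mitochondrial alanine aminotransferase, had 181 and 188 TPM in 2iL, 59.9 and 59.5 TPM in 2iL-F and 16.00 and 18.8 TPM in SL. Trib3, a pseudokinase that restrains ATF4, had 116 and 112 TPM in 2iL, 56.5 and 56.7 TPM in 2iL-F and 15.7 and 15.6 TPM in SL, and Pycr1, which makes proline, had 84.8 and 79.8 TPM in 2iL, 40.8 and 38.4 TPM in 2iL-F and 11.9 and 11.04 TPM in SL. The 3 groups did not overlap in any of these genes, with 2iL highest and SL lowest. In serine, folate and glycine metabolism 16 of 27 members were higher and 6 lower, where 36.7% of all lines were higher and 40.9% lower. Cbs, which makes cystathionine, had 54.8 and 55.5 TPM in 2iL, 29.6 and 27.2 TPM in 2iL-F and 9.51 and 10.3 TPM in SL, and Mthfd2, a mitochondrial folate enzyme, had 195 and 202 TPM in 2iL, 84.1 and 86.4 TPM in 2iL-F and 59.1 and 56.7 TPM in SL. Gcat, of threonine breakdown, had 137 and 142 TPM in 2iL, 104 and 103 TPM in 2iL-F and 31.8 and 33.9 TPM in SL, and Amt, of the glycine cleavage system, had 116 and 135 TPM in 2iL, 102 and 104 TPM in 2iL-F and 38.7 and 42.9 TPM in SL.

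**Figure D4:**
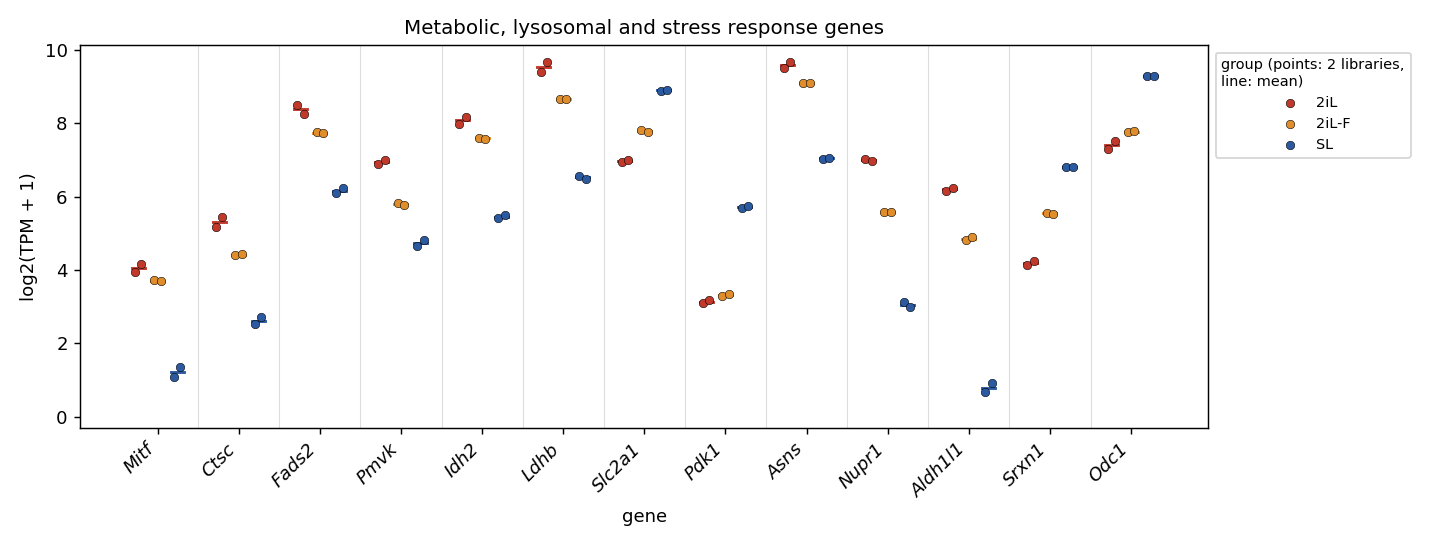
Level of 13 lysosomal, lipid, mitochondrial, glycolytic and stress response genes as log2(TPM + 1) in 2iL, 2iL-F and SL, with a point for each of 2 libraries and a line at their mean. Slc2a1, Pdk1, Srxn1 and Odc1 are highest in SL, and the other 9 are lowest there.

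Genes of cholesterol and fatty acid synthesis were mostly higher in 2iL. 23 of 30 tested members were higher in 2iL and 7 lower, with a median of 0.925, and 23 were higher and 3 lower in 2iL-F. Fads2 and Fads1, the desaturases of long fatty acids, had 362 and 307 TPM in 2iL, 216 and 212 TPM in 2iL-F and 67.7 and 74.1 TPM in SL for Fads2 and 117 and 131 TPM in 2iL, 90.02 and 87.2 TPM in 2iL-F and 29.1 and 31.8 TPM in SL for Fads1. Pmvk and Mvd, of the mevalonate pathway, had 119 and 127 TPM in 2iL, 55.8 and 53.3 TPM in 2iL-F and 24.1 and 27.4 TPM in SL for Pmvk and 192 and 176 TPM in 2iL, 99.4 and 101 TPM in 2iL-F and 49.1 and 51.7 TPM in SL for Mvd. Msmo1, a sterol oxidase, had 74.03 and 90.1 TPM in 2iL, 45.5 and 45.3 TPM in 2iL-F and 22.8 and 20.7 TPM in SL, and Acss2, which activates acetate in the cytosol, had 12.9 and 13.6 TPM in 2iL, 8.89 and 8.94 TPM in 2iL-F and 3.35 and 3.397 TPM in SL. The sterol element TCACNCCAC lay on neither strand of the 250 bases before any of 20 members with a promoter in the table, and before 1.22% of all 27025 genes, which says only that these letters are not in this window.

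Lysosome and autophagy genes were higher in 26 of 46 tested cases and lower in 13, where 36.7% of all lines were higher and 40.9% lower. In 2iL-F 32 were higher than in SL and 6 lower, where 28.1% and 37.3% of all lines were. Mitf, a factor that activates lysosomal genes, had 14.4 and 16.8 TPM in 2iL, 12.2 and 11.9 TPM in 2iL-F and 1.11 and 1.55 TPM in SL. Tfeb, its relative and chosen after its values were seen, had 40.3 and 34.1 TPM in 2iL, 48.3 and 41.9 TPM in 2iL-F and 11.6 and 11.6 TPM in SL. Ctsc, a cathepsin, had 35.03 and 42.4 TPM in 2iL, 20.2 and 20.6 TPM in 2iL-F and 4.72 and 5.55 TPM in SL. Lipa, the acid lipase, and Ctsk, a cathepsin that carried the fibroblast mark, went the other way, by -2.15 ± 0.09 and -4.49 ± 0.05. Ctsk had 0.116 and 0.109 TPM in 2iL, 62.7 and 62.6 TPM in 2iL-F and 23.6 and 24.5 TPM in SL, and its difference was -6.83 with a pseudocount of 0.1. The element TCACGTGA, which MITF and TFEB bind, lay before 4 of 35 members with a promoter in the table, or 11.4%, and before 0.907% of all genes. They were Ctsa, Ctsd, Gla and Mcoln1.

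Mitochondrial genes were modestly higher and glycolysis genes were called in both directions. In the list of the TCA cycle and oxidative phosphorylation 33 of 46 were higher and 4 lower, with a median of 0.382. Of all lines 36.7% were higher and 40.9% lower. In 2iL-F 24 of the list were higher, where 28.1% of all lines were. Idh2, the mitochondrial isocitrate dehydrogenase, had 253 and 289 TPM in 2iL, 195 and 191 TPM in 2iL-F and 41.5 and 44.1 TPM in SL, and Idh1, its cytosolic counterpart, had 115 and 134 TPM in 2iL, 127 and 131 TPM in 2iL-F and 37.4 and 39.2 TPM in SL. Cox5a, a subunit of cytochrome oxidase, had 153 and 179 TPM in 2iL, 151 and 148 TPM in 2iL-F and 81.2 and 76.02 TPM in SL. Ppargc1b, a coactivator of mitochondrial genes, had 13.7 and 12.3 TPM in 2iL, 4.77 and 3.83 TPM in 2iL-F and 2.41 and 2.63 TPM in SL.

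In glycolysis 8 of 22 tested members were higher and 11 lower, whereas in 2iL-F 10 were higher and 6 lower. Ldhb, a subunit of lactate dehydrogenase, had 669 and 813 TPM in 2iL, 404 and 407 TPM in 2iL-F and 94.2 and 88.6 TPM in SL, and Pfkp, the platelet form of phosphofructokinase, had 50.8 and 53.2 TPM in 2iL, 46.01 and 45.7 TPM in 2iL-F and 8.13 and 8.61 TPM in SL. Slc2a1, the glucose transporter GLUT1, had 123 and 127 TPM in 2iL, 224 and 219 TPM in 2iL-F and 468 and 484 TPM in SL, and Pdk1, which holds pyruvate from the mitochondria, had 7.58 and 8.02 TPM in 2iL, 8.87 and 9.104 TPM in 2iL-F and 51.04 and 52.2 TPM in SL. Slc16a3, which exports lactate, had 11.4 and 10.4 TPM in 2iL, 47.02 and 43.9 TPM in 2iL-F and 61.7 and 59.97 TPM in SL. Pdk1 was low in both 2iL media, while for Slc16a3 the 2iL-F libraries lay nearer to SL. Of 36 genes of glutathione and redox 16 were higher and 16 lower, where 36.7% of all lines were higher and 40.9% lower. Srxn1, which restores peroxiredoxins, had 16.5 and 17.8 TPM in 2iL, 46.3 and 45.4 TPM in 2iL-F and 112 and 112 TPM in SL, and Gsto1, a glutathione transferase that carried the fibroblast mark, had 49.8 and 47.8 TPM in 2iL, 108 and 108 TPM in 2iL-F and 263 and 261 TPM in SL. Gpx3, a secreted peroxidase with the same mark, had 7.11 and 7.54 TPM in 2iL, 74.8 and 68.5 TPM in 2iL-F and 46.8 and 43.8 TPM in SL, and Aldh1a3, a retinal dehydrogenase, had 5.77 and 6.65 TPM in 2iL, 3.91 and 3.03 TPM in 2iL-F and 0.5403 and 0.437 TPM in SL.

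Most genes that build ribosomes were lower in 2iL, and more ribosomal protein genes were higher than lower. Of 31 tested genes of ribosome biogenesis and MYC targets, 26 were lower in 2iL and 4 higher, with a median of -0.651, and 24 were lower in 2iL-F. Odc1, the first enzyme of polyamine synthesis, had 158 and 181 TPM in 2iL, 214 and 219 TPM in 2iL-F and 624 and 632 TPM in SL. Ncl, nucleolin, had 261 and 253 TPM in 2iL, 364 and 373 TPM in 2iL-F and 577 and 578 TPM in SL, and Ddx21, an RNA helicase of the nucleolus, had 126 and 134 TPM in 2iL, 154 and 153 TPM in 2iL-F and 297 and 307 TPM in SL. Nolc1, another nucleolar protein, differed by -0.99 ± 0.05, and Taf1d, of the RNA polymerase I machinery, by -1.72 ± 0.06. Of 29 genes of cytosolic and mitochondrial ribosomal proteins, 17 were higher in 2iL and 6 lower, with a median of 0.232. Of all lines 36.7% were higher and 40.9% lower. In 2iL-F 11 were higher and 7 lower, where 28.1% and 37.3% of all lines were. Rpl13 had 1609.5 and 1843 TPM in 2iL, 1193 and 1199 TPM in 2iL-F and 955 and 933 TPM in SL.

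Genes of the cell cycle were higher in part. Of all lines 36.7% were higher and 40.9% lower in 2iL than in SL, and 28.1% and 37.3% in 2iL-F, beside which the counts below stand. Of 51 tested S phase and replication genes 30 were higher and 8 lower, with a median of 0.249, and in 2iL-F 22 were higher and 7 lower. Cdk2, the kinase of S phase entry, had 55.6 and 60.3 TPM in 2iL, 39.8 and 38.5 TPM in 2iL-F and 18.3 and 18.9 TPM in SL, while Ccne1, the cyclin that pairs with it, had 67.6 and 73.7 TPM in 2iL, 78.9 and 74.7 TPM in 2iL-F and 197 and 203 TPM in SL. E2f1 and E2f3, factors of the same transition, had 85.8 and 79.6 TPM in 2iL, 71.1 and 64.5 TPM in 2iL-F and 35.6 and 37.5 TPM in SL for E2f1 and 8.04 and 9.51 TPM in 2iL, 24.4 and 24.5 TPM in 2iL-F and 27.4 and 29.3 TPM in SL for E2f3. Cdkn1b, the inhibitor p27, had 57.3 and 63.01 TPM in 2iL, 26.7 and 23.6 TPM in 2iL-F and 13.8 and 13.1 TPM in SL. Mitosis genes were higher in 18 of 37 cases and lower in 8, whereas in 2iL-F 6 were higher and 11 lower. DNA damage and repair genes were higher in 32 and lower in 11 of 58, and in 2iL-F in 22 and 11. Of 24 p53 targets 7 were higher and 12 lower, with Perp, a membrane protein of this pathway, at 3.23 and 4.26 TPM in 2iL, 9.02 and 9.62 TPM in 2iL-F and 54.95 and 54.04 TPM in SL.

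The other lists held calls in both directions, as all lines did, with 36.7% higher and 40.9% lower. Of 16 imprinted genes 12 were lower in 2iL and 3 higher. H19, a noncoding RNA, had 0.143 and 0.1004 TPM in 2iL, 672 and 666 TPM in 2iL-F and 82.4 and 75.9 TPM in SL, and Grb10, an adaptor that restrains growth signals, had 3.32 and 4.51 TPM in 2iL, 22.7 and 21.7 TPM in 2iL-F and 72.6 and 75.6 TPM in SL. Of 19 genes that silence retroelements 8 were lower, where 40.9% of all lines were, and 3 higher, and 7 to 12 were lower with a library left out. Trim28, the corepressor KAP1, had 599.6 and 599 TPM in 2iL, 816 and 770.2 TPM in 2iL-F and 860.2 and 839.8 TPM in SL. Polycomb and chromatin modifiers had 13 higher and 9 lower of 31, and Ezh2, the methyltransferase of Polycomb, had 91.8 and 103 TPM in 2iL, 49.5 and 50.3 TPM in 2iL-F and 44.6 and 45.1 TPM in SL. Receptors and kinases of the FGF and ERK pathway had 9 higher and 5 lower of 19, and in 2iL-F 6 higher and 9 lower. Metal ion handling had 7 and 11 of 20, and G1 cyclins and their inhibitors 10 and 11 of 26. Arg2, an arginase and the 1 tested gene of the 2-cell-like list, differed by -0.61 ± 0.15, or by -0.122 without passing after quantile normalisation (limma, adjusted p = 0.44) and by -1.10 with a pseudocount of 0.1. Of 10 broadly expressed genes 2 were higher and 6 lower, and Tfrc, the transferrin receptor, differed by -0.71.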

How the data were processed

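RNA of 10 mouse ESC libraries was measured, per the labels' protocols from kits of Qiagen (RNA) and NEB (NEBNext Ultra libraries). The deposited table holds TPM in 20494 lines, made by the authors with RSEM after alignment by Bowtie2 to mm10. The submitters' processing notes name these tools without versions, and also DESeq2 and R 3.4.2. The lines of the table held 71.0% to 73.0% of the fixed TPM total in each library. TPM hold no read counts, so no count test was run and depth is unknown.

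The pairing of symbols and values was checked with 208 members of broadly expressed families and 24 restricted ones. In the named part 98.6% and 4.17% of them had 5 TPM or more, with an area under the curve of 0.999, and further down the table the own line gave 0.571 while the next line gave 0.981. Of the tested named symbols 99.5% were in GENCODE vM21, which gave coordinates in mm10. Gene promoters were those of RefSeq on GRCm38.p6, searched for motifs over 250 bases.

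Lines with 1 TPM or more in at least 2 libraries (14578, of which 6616 carry no usable name) were taken as log2(TPM + 1) into limma 3.58.1 (R 4.3.3), using lmFit, contrasts.fit and a trended eBayes. All 10 libraries entered with a mean for each medium, leaving 5 residual degrees of freedom, or a median of 8.31 with the prior. Tests were two-sided, and Benjamini-Hochberg adjustment ran over these lines with a threshold of 0.05. A line was marked as following fibroblast RNA where its correlation over the 6 libraries of A2iL, LCDM and 2iL-F with the mean of the 21 matrix core genes was above 0.9 and 2iL-F exceeded LCDM by at least 1 on the log2 scale. Replicate numbers 3 and 5 were not used as a block, since deviations of libraries with the same number correlated at -0.131 to 0.0746.

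The groups compared and the gene lists were chosen with earlier results of these data known, so counts over a list describe it and test nothing. Named were the 15 largest increases and the 15 largest decreases outside marked lines, the 10 largest decreases among marked lines, any member of the pluripotency, primed, methylation, ERK, BMP, LIF, Wnt and matrix lists, and up to 6 called members with the largest differences of each other list. The first 3 sets took genes with 5 TPM or more in the higher group and libraries that did not overlap, without predicted, ribosomal or histone genes. Some genes that this rule takes are not reported here. Cdh1, Cldn7 and Tfeb were added after their values were seen, and the other members of lists that hold a searched motif are named without values.

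On simulated data for 2iL against SL, with 200 of 14578 lines changed in 5 runs, 58.4% of log2 changes of 0.5 were called, 93.2% of those of 1, 97.2% of those of 2 and 97.6% of those of 3, while 4.1% of calls were false. These rates need not hold for the data, where 11321 lines were called. The simulated scatter was also taken from libraries that may not be independent cultures. The alternatives changed the pseudocount (0.1), the filter (none, or 5 TPM), the scaling (median of ratios, or quantiles), the libraries fitted (2iL and SL alone, or all but 2iL-F) and the eBayes step (robust), and further ones were a replicate block, each library left out, marked lines removed with rescaling, and the mark by all 10 libraries or by a correlation above 0.8. Python 3.11.15 with pandas 2.3.3, numpy 2.4.6 and matplotlib 3.10.9 made the tables and plots.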

Additional observations from a re-analysis of the deposited data

Results flagged for a closer look

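Genes that the text names were set out where 2iL and 2iL-F, 2 groups with 1 medium, moved by at least 1 on the log2 scale in opposite directions against the same SL libraries, and where limma's test of 2iL-F against 2iL passed. Per the labels 2iL had feeders and 2iL-F had none. There were 7 such genes. For Col1a1 the difference of 2iL-F from 2iL was 9.69, with 1.42 in 2iL-F and -8.27 in 2iL, each against SL. Col1a2 differed between the 2iL media by 7.95 and Col3a1, the chain of type III collagen, by 8.47. Postn differed by 6.17 and Ctsk by 5.84. H19 had 672 and 666 TPM in 2iL-F, against 0.143 and 0.1004 TPM in 2iL, a difference of 9.22. Cldn7 went the opposite way, with 4.404 and 4.44 TPM in 2iL-F, against 65.8 and 68.00 TPM in 2iL, a difference of -3.65. The cause of these differences was not tested.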

How the results depend on the processing

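Counts of lines called between 2iL and SL stayed within 1.5 times under the alternatives run, with 4473 to 6003 lines higher and 4575 to 7146 lower. Leaving out a library gave 4831 to 5433 higher and 5464 to 6098 lower, where a lone library was assumed to vary like the other groups. The replicate block gave 5299 higher and 5942 lower. It changed no call of the 192 named genes followed under the alternatives, which did not include Dusp9 and Col4a1. The share of higher calls was 47.3%, and 52.5% after quantile normalisation. With the fibroblast mark defined over all 10 libraries, 623 marked lines were lower, against 366, by a definition that uses 2iL and SL themselves. With marked lines removed, fewer genes were tested and those lower were 18 of 18 fibroblast markers, 6 of 6 matrix core genes, 12 of 21 integrins and laminins and 9 of 10 interferon genes. With a filter of 5 TPM, again with fewer genes tested, 5 of 8 Wnt targets were lower, 2 of 6 mesoderm genes, 6 of 7 neural genes, 12 of 14 interferon genes and 0 of 0 2-cell-like genes. Without a filter 11 of 21 mesoderm genes were lower, and after quantile normalisation 0 of 1 2-cell-like genes. Over 192 named genes and the 16 alternatives that bear on single genes, 3020 values kept direction and call, 19 lost the call and 1 turned. That was Tet3, at 0.233 after quantile normalisation (limma, adjusted p = 0.0271), against -0.041, and the cause was not tested. Lost calls were those of Eomes, Tdgf1, Uhrf2, Cdx1 and Arg2. With a pseudocount of 0.1 the difference of 24 of the 192 genes grew by over 1.5 times, each low in at least 1 group. Without read counts, low values carry an unknown error.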
